A study of Mus musculus with 6 samples.

Results

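The ubiquitin-specific proteases (USPs) were followed in retinal mRNA of Cyfip2 conditional knockout (CKO) mice and of wild-type (WT) controls. Their genes were chosen by symbol, as Usp followed by a number and at most one letter, and an average level of 1 FPKM or more across the libraries. Of 50 symbols of this form, 43 reached that level, among 24346 symbols in all. Levels are in FPKM, a count of fragments divided by transcript length and library size, so that genes can be set side by side. The level, averaged over both genotypes, is what chose the members and is given here as a description. Usp47 heads the family because its difference between the genotypes was already known, and its values are a description that adds no independent support.

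The series held 3 libraries of Cyfip2 CKO retina and 3 of Cyfip2 WT retina. The labels give neither age, sex nor strain, and they name neither the Cre line nor the cells in which it acts. Nothing in them says that a group's libraries are from different animals, and the p-values therefore describe a spread between libraries that may be technical. The comparison asks which transcripts differ when Cyfip2, a subunit of the actin-regulating WAVE complex, is deficient in the retina.

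USPs are cysteine proteases that cut ubiquitin from other proteins or take ubiquitin chains apart. They form the largest family of deubiquitinases and thereby oppose the ubiquitin ligases that mark proteins for the proteasome, for endosomal sorting or for a change of activity. Most members have a catalytic domain in common and differ in the flanking domains that set where they act: on histones, at the proteasome, on endosomes, on the mitochondrial surface or at sites of DNA repair. Neurons, photoreceptors among them, depend on steady turnover of proteins through this system.

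All 20 retinal marker genes had a mean of at least 1 FPKM, with a summed level of 14399 to 15697 FPKM in CKO and 15090 to 16235 FPKM in WT libraries. Summed levels were 8.54 to 12.2 FPKM in CKO and 4.99 to 12.2 FPKM in WT for 5 pigment epithelium genes, and 21.04 to 35.6 FPKM in CKO and 33.8 to 185.9 FPKM in WT for 6 lens genes. Of these markers, Best1, Lrat, Bfsp1 and Lim2 had means under 1 FPKM. The lens gene Cryaa was at 102.8 FPKM in WT 2 and at 9.22 to 35.1 FPKM in the other libraries. Summed levels were 12.8 to 21.1 FPKM in CKO and 17.2 to 30.7 FPKM in WT for 4 blood genes, 4.32 to 6.15 FPKM in CKO and 3.26 to 5.78 FPKM in WT for 4 skeletal muscle genes, and 11.5 to 12.5 FPKM in CKO and 11.8 to 15.6 FPKM in WT for 4 microglial genes. Among these genes, Hba-a2, Hbb-bs, Alas2, Myh4 and Ckm had means under 1 FPKM. Hba-a1 alone, at 12.1 to 29.6 FPKM, made up most of the blood sum. The part of these other cells in the USP values was not tested. Cyfip2 itself was at 8.33, 10.2 and 11.2 FPKM in CKO and at 35.5, 63.1 and 62.3 FPKM in WT libraries, in keeping with the order the labels give; WT 1 was the lowest of its group. In bulk RNA, fewer cells of a type and less RNA per cell cannot be told apart.

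The stretches around the transcription starts of Usp47 and Usp11 are shown because these were the members higher in CKO at an unadjusted p under 0.05. Each window runs from 250 bases before to 50 bases after the RefSeq start (GRCm38.p6), 5′ to 3′ on the gene's strand, with CG dinucleotides in capitals. The Usp47 window lies at chr7:112023256-112023555 on the plus strand and that of Usp11 at chrX:20703659-20703958 on the plus strand.
Usp47: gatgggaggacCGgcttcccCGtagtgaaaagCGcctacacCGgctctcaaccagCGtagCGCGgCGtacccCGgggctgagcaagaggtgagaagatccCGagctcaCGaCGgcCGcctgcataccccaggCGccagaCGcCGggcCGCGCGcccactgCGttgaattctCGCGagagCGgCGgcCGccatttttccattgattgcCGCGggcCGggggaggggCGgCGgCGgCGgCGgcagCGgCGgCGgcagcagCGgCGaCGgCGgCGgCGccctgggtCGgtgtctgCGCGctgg
Usp11: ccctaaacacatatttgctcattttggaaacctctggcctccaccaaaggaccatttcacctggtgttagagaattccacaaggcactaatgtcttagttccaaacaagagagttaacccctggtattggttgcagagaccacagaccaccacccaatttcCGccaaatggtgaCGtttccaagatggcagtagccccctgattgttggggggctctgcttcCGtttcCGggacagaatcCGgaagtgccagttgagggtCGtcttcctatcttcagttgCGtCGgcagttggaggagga
The Usp47 window held 45 CG dinucleotides and the Usp11 window 8. RefSeq windows were found for 34 of the 43 members, where the count ran from 5 for Usp54 to 63 for Usp7. The median was 30.5 in the members and 7 in all 32851 windows of the table. The GC box GGGCGG, searched on both strands, occurred in 25 of the 34 windows (73.5%) and in 35.7% of all windows; the Usp47 window holds it. The TATA box TATAAA occurred in 2 windows (5.88%), those of Usp40 and Usp19, and in 13.6% of all windows. The windows of all genes were not filtered by level, whereas the members had to reach 1 FPKM. Counts and shares for expressed genes alone were not computed, so these values do not show a trait particular to the family. These matches are descriptions of the letters, and transcription starts were not measured.

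Usp47 encodes a deubiquitinase that in human cells binds the ubiquitin ligase adaptor beta-TrCP and stabilizes DNA polymerase beta, an enzyme of base excision repair. Its gene (ENSMUSG00000059263.9) lies on chromosome 7 from 112023504 to 112111661 on the plus strand in GENCODE M21 on GRCm38. The longest of its 6 annotated transcripts has 29 exons and 5816 bases. Usp47 was at 58.8, 58.5 and 61.2 FPKM in CKO and at 42.9, 41.7 and 43.1 FPKM in WT libraries. Every CKO library lay above every WT library, with no library near the gap. The mean and SD of 3 libraries were 59.5 ± 1.47 FPKM for CKO and 42.6 ± 0.777 FPKM for WT, which is 39.8% higher in CKO. On the log2(FPKM + 1) scale this was 0.47 with an SE of 0.04 and a 95% interval of 0.37 to 0.57 (adjusted p = 0.0239 in limma, over 13215 genes).

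The call of Usp47 was lost when any of the 6 libraries was left out, while the size of its difference stayed. With CKO 1, CKO 2, CKO 3, WT 1, WT 2 or WT 3 left out, the limma adjusted p was 0.086, 0.1117, 0.1166, 0.1186, 0.1973 and 0.0579 in that order, with fold changes of 0.45 to 0.49. Its residual spread within the genotypes was 0.031 on the log2 scale, smaller than that of all but 2.67% of the genes tested. With the variance trend switched off in limma, the adjusted p was 0.1511.

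The difference moved Usp47 within the order of the family. It ranked 2 of 43 by mean level in CKO and 5 of 43 in WT. In CKO its mean was next to that of Usp19, at 59.5 ± 2.87 FPKM, from which it did not differ beyond the spread. In WT it lay below Usp12, at 46.999 ± 2.197 FPKM, and above Usp5, at 41.4 ± 0.164 FPKM. Usp47 made up 6.11% to 6.47% of the summed FPKM of the 43 genes in CKO libraries and 4.49% to 4.67% in WT libraries. The sum of the other 42 genes was 851.3 to 899.97 FPKM in CKO libraries and 875.7 to 886.3 FPKM in WT libraries, so that the genotypes overlapped.

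**Figure D1:**
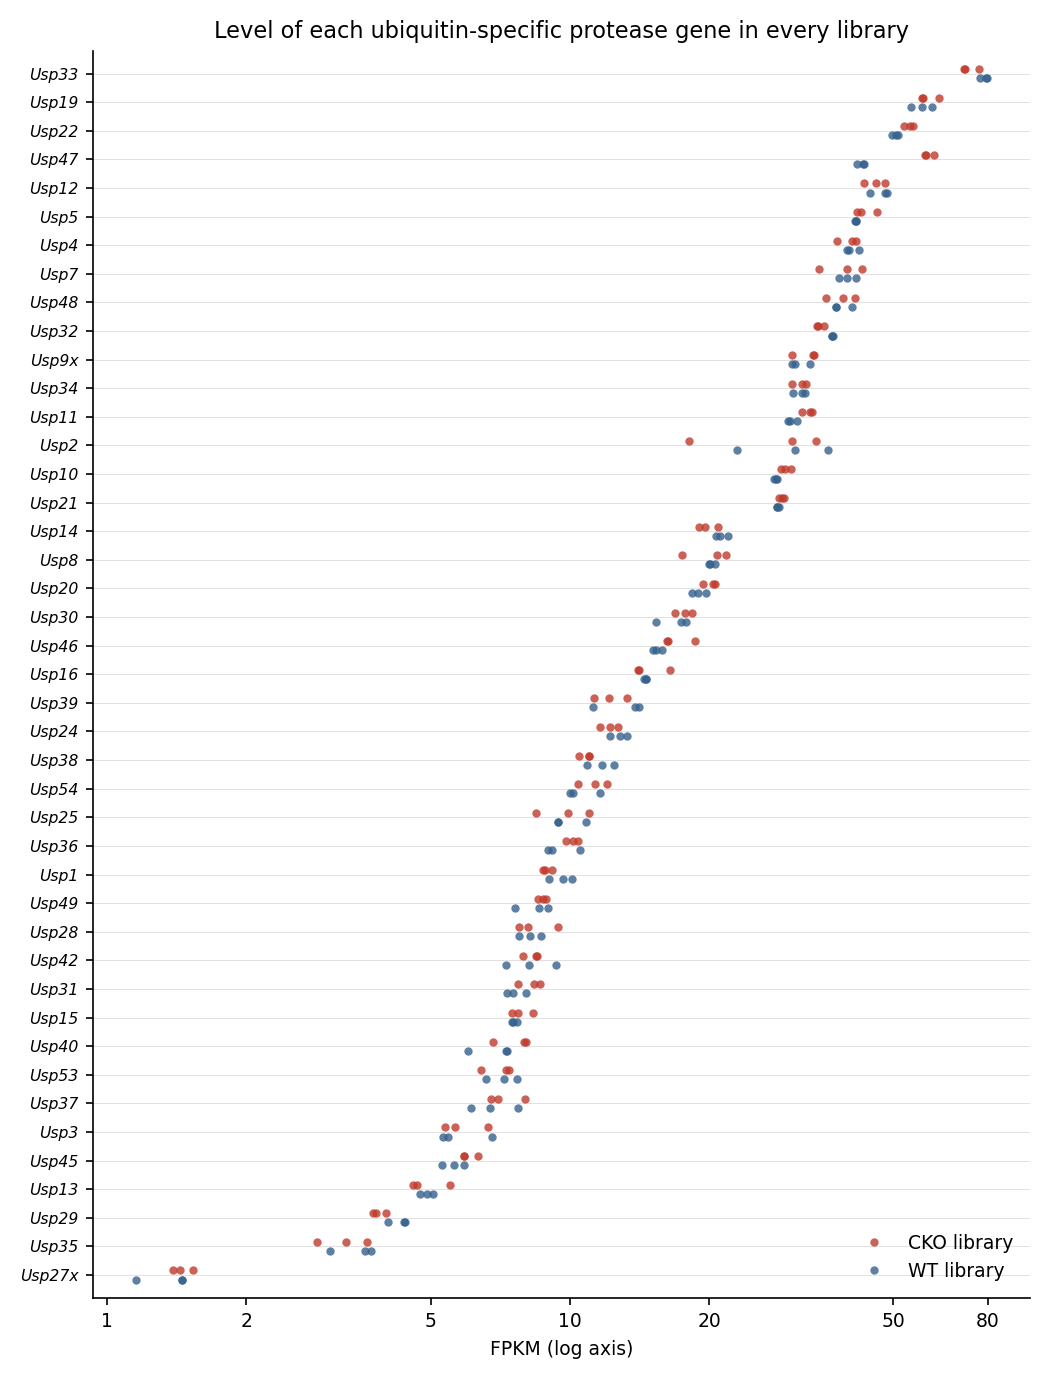
FPKM on a log axis of each of the 43 members in every library (red points, 3 CKO libraries; blue points, 3 WT libraries), ordered by mean level. Usp47 is the member with a clear gap between the genotypes, at 58.5 to 61.2 FPKM in CKO and 41.7 to 43.1 FPKM in WT, and the points of Usp2 are the most scattered.

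The neighbour of Usp47 on chromosome 7, Dkk3, differed in the same direction and by more. Dkk3 encodes a secreted glycoprotein and stands on the opposite strand, tail to tail with Usp47, with 4355 bases between the annotated ends. Its levels were 416.1, 450.3 and 474.3 FPKM in CKO and 228.3, 240.5 and 232.8 FPKM in WT libraries. The ratio of Dkk3 to Usp47 was 7.07, 7.70 and 7.75 in CKO libraries and 5.32, 5.77 and 5.40 in WT libraries. The difference between the genotype means was 213.01 FPKM for Dkk3 and 16.9 FPKM for Usp47. Both genes were thus higher in every CKO library, and Dkk3 more so than Usp47.

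Around the pair, 7 other genes within 1 Mb of Usp47 were tested, with fold changes of -0.08 to 0.17 on the log2 scale (median 0.058), and none passed at an adjusted p of 0.05. The nearest, Mical2, an actin-oxidizing enzyme gene 114194 bases from Usp47, averaged 5.39 FPKM in CKO and 5.73 FPKM in WT (log2 fold change -0.08, 95% interval -0.28 to 0.12). Galnt18, a glycosyltransferase gene 243526 bases away on the other side, averaged 13.8 FPKM in CKO and 12.4 FPKM in WT. Its log2 fold change was 0.14 (limma unadjusted p = 0.0444, adjusted p = 0.6213). The CKO and WT libraries did not overlap for Galnt18 and for Ctr9, a gene of the PAF1 transcription elongation complex, both higher in CKO, where the share of all tested genes without overlap was 13.9%. Ctr9 was at 33.6, 33.4 and 33.9 FPKM in CKO and at 33.2, 31.6 and 30.9 FPKM in WT libraries. The groups overlapped for the other genes. Parva, an adhesion adaptor gene, averaged 26.1 FPKM in CKO and 25.1 FPKM in WT, and Tead1, a transcription factor gene of the Hippo pathway, 5.71 FPKM in CKO and 5.54 FPKM in WT. The translation factor gene Eif4g2 averaged 167.999 FPKM in CKO and 174.5 FPKM in WT, and the transcript 1700012D14Rik 1.89 FPKM in CKO and 1.58 FPKM in WT. One FPKM value for a whole gene does not locate its reads along the exons, and no source used here gives the strand setting of the counting. Dkk3 regulatory sequence drives Cre in a transgenic mouse line, Dkk3-Cre, that is used to delete floxed genes in retinal progenitors. No source used here names the Cre line of these animals, and its part in the values of Usp47 and Dkk3 was not tested.

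**Figure D2:**
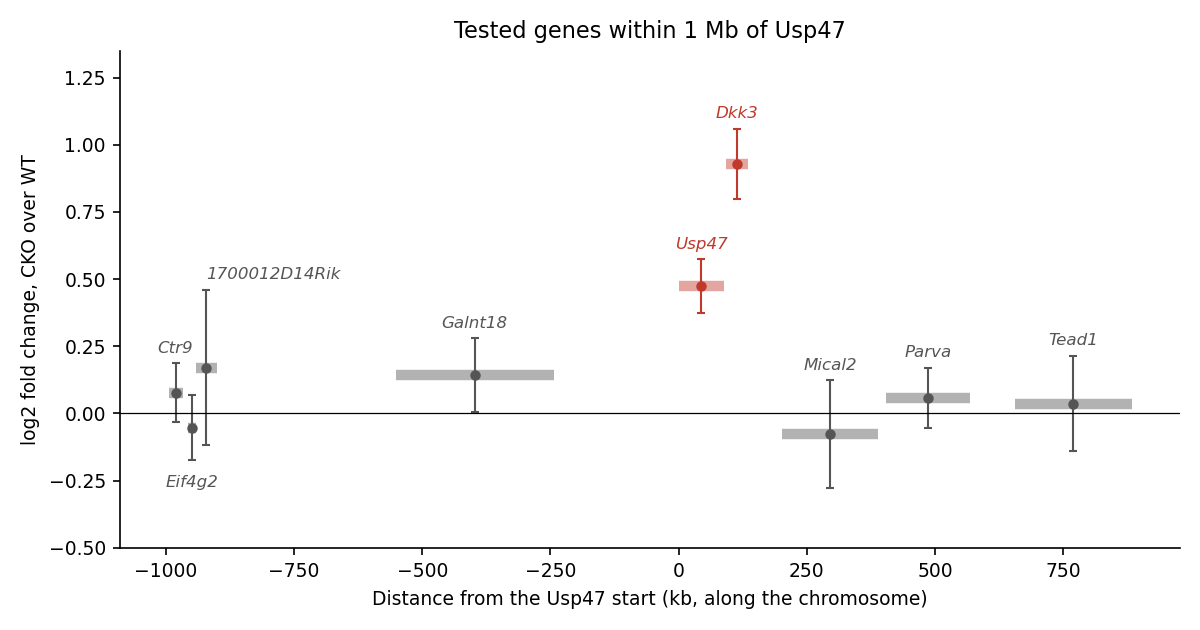
Log2 fold change (CKO over WT, on log2(FPKM + 1)) of the tested genes within 1 Mb of Usp47 against distance from the Usp47 start in kb; thick bars span the genes, and points with whiskers give the fitted value and its 95% interval. Usp47 (0.47) and Dkk3 (0.93) stand above the 7 other genes, which lie between -0.08 and 0.17.

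Beyond Usp47, the family as a whole stayed close to the level in WT. In limma 1 of the 43 members, Usp47, was called higher at an adjusted p under 0.05 and none lower. The share of all tested genes called was 0.0227%, with 0.0151% higher and 0.00757% lower. That share is 3 genes: Usp47 itself, its neighbour Dkk3 (limma adjusted p = 0.00274) and Cyfip2 (limma adjusted p = 0.0239). It is therefore not independent of Usp47. An unadjusted p under 0.05 was found for 3 members (6.98%), for Usp47 and Usp11 as higher and for Usp33 as lower in CKO. Over all tested genes this share was 7.88%, with 3.52% higher and 4.36% lower, so that the family lay near the background. Of the 43 fold changes, 25 were above 0 and 18 below, with a median of 0.024, and over all genes the median was -0.0016. The fold changes of the 42 members other than Usp47 ran from -0.14 to 0.13 on the log2 scale. In 38 of the 43 the 95% interval lay within 0.32 of 0, a bound used for description only.

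**Figure D3:**
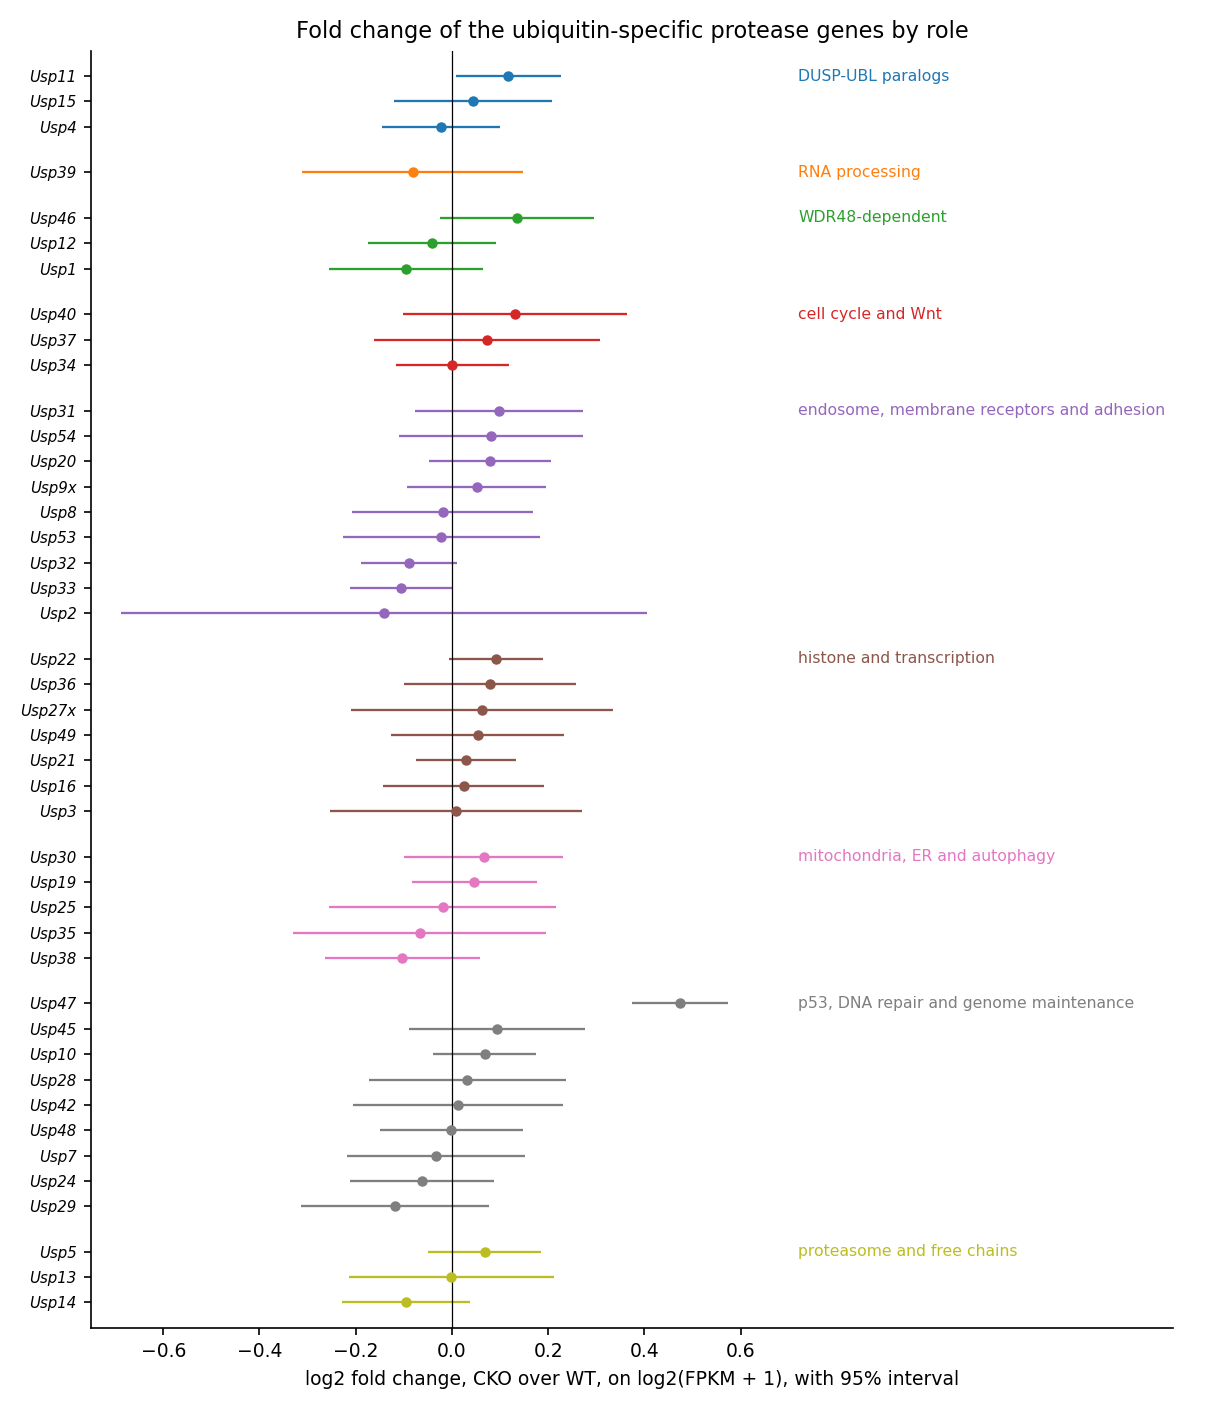
Log2 fold change (CKO over WT, on log2(FPKM + 1)) of each of the 43 members, grouped by role; points are fitted values and whiskers 95% intervals. Usp47, at 0.47 (0.37 to 0.57), stands apart from the other 42, which lie between -0.14 and 0.13, and Usp2 has the widest interval.

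The CKO and WT libraries did not overlap in 9 of the 43 members (20.9%), 6 higher and 3 lower in CKO, where the share of all tested genes was 13.9% (6.96% higher and 6.95% lower). Without Usp47 the count was 8 of 42 (19.05%). Apart from Usp47, none of these passed the adjusted threshold, and the differences were 5.02% to 10.6% of the WT mean. They are given by role, with each ± standing for the SD of 3 libraries.

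Among members with roles in DNA repair and the p53 pathway, Usp10, which deubiquitinates p53 and works with the stress granule protein G3BP, was at 29.1, 30.0 and 28.6 FPKM in CKO and at 27.8, 28.1 and 27.6 FPKM in WT libraries. The groups did not overlap, yet the gap between the nearest libraries was small (log2 fold change 0.07, limma adjusted p = 0.7737). Usp29, an imprinted gene of the Peg3 region, was at 3.76, 3.997 and 3.81 FPKM in CKO and at 4.40, 4.37 and 4.05 FPKM in WT libraries (log2 fold change -0.12, limma adjusted p = 0.7754). Its CKO libraries were the lower ones, and in GENCODE the gene overlaps Zim3 and Mir3099, so its reads may be shared. Usp7, which acts on Mdm2 and p53, averaged 39.0 ± 4.22 FPKM in CKO and 39.8 ± 1.77 FPKM in WT, and the groups overlapped. Usp45, a regulator of the ERCC1 repair nuclease, averaged 6.04 ± 0.241 FPKM in CKO and 5.60 ± 0.313 FPKM in WT. Usp24, a very large protease, averaged 12.2 FPKM in CKO and 12.8 FPKM in WT. Usp42, which acts on p53 in stress, averaged 8.29 FPKM in CKO and 8.25 FPKM in WT, and Usp48, a nuclear protease of histone H2A, 38.7 FPKM in each genotype. Usp28 also has this role and is given beside its paralog Usp25. Of the 9 genes with this role, 5 had fold changes above 0 and 4 below, and only Usp47 was called.

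Usp4, Usp11 and Usp15 are close relatives that share a DUSP domain and ubiquitin-like domains. Usp11, which acts in repair of DNA breaks, was at 31.8, 33.1 and 33.4 FPKM in CKO and at 30.9, 29.6 and 29.8 FPKM in WT libraries. The groups did not overlap, and the lowest CKO library was close to the highest WT library. The log2 fold change was 0.12 (SE 0.05, limma unadjusted p = 0.0386, adjusted p = 0.6038). Usp4 averaged 40.0 FPKM in CKO and 40.6 FPKM in WT, and Usp15 7.84 FPKM in CKO and 7.57 FPKM in WT; for both, the groups overlapped. The ratio of Usp11 to Usp4 was 0.841, 0.815 and 0.802 in CKO and 0.779, 0.738 and 0.709 in WT libraries. It was higher in every CKO library, and it carries the difference of Usp11 given above.

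On endosomes and at the membrane, Usp33 was the most abundant member of the family in both genotypes. It deubiquitinates membrane receptors, among them the beta2-adrenergic receptor and the axon guidance receptor Robo1 in cultured cells. Its levels were 71.4, 70.9 and 76.3 FPKM in CKO and 76.8, 79.1 and 79.7 FPKM in WT libraries. The groups did not overlap, though CKO 3 almost reached WT 1. The log2 fold change was -0.11 (SE 0.05, limma unadjusted p = 0.0497, adjusted p = 0.6325). Its paralog Usp20 averaged 20.1 ± 0.638 FPKM in CKO and 18.98 ± 0.648 FPKM in WT (log2 fold change 0.08), and its groups overlapped. The ratio of Usp20 to Usp33 was 0.272, 0.290 and 0.267 in CKO and 0.239, 0.249 and 0.237 in WT libraries, with no overlap.

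Usp32, a membrane-anchored protease of the Golgi and late endosomes, was at 34.2, 35.3 and 34.4 FPKM in CKO and at 36.9, 36.8 and 37.1 FPKM in WT libraries. The libraries of each genotype lay close together and the groups did not overlap (log2 fold change -0.09, limma adjusted p = 0.6754). Usp8, which works with the ESCRT machinery on endosomes, averaged 19.998 ± 2.24 FPKM in CKO and 20.2 ± 0.313 FPKM in WT. Usp9x, a large X-linked member that acts on cell junction and endosomal proteins, averaged 32.5 ± 1.97 FPKM in CKO and 31.3 ± 1.56 FPKM in WT. The junction protein gene Usp53 averaged 7.04 FPKM in CKO and 7.16 FPKM in WT and its paralog Usp54 11.2 FPKM in CKO and 10.6 FPKM in WT. Usp31 averaged 8.22 FPKM in CKO and 7.62 FPKM in WT. The Y-linked copy of Usp9x, Usp9y, was listed at 0 in all libraries. Usp2 also has this role and is given further on, while Usp9y was not tested. Of the 9 genes with this role, 4 had fold changes above 0 and 5 below, and none was called.

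**Figure D4:**
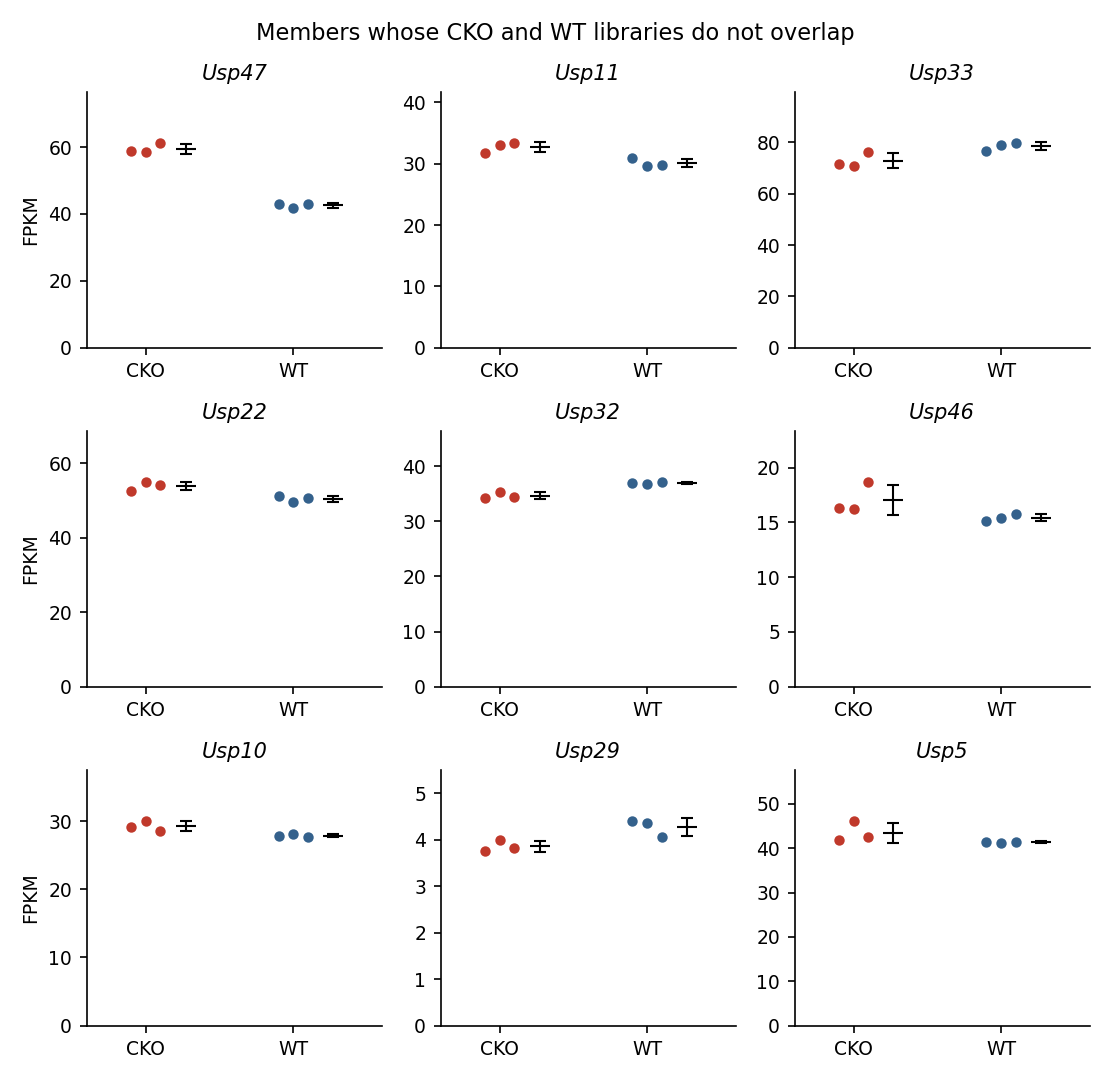
FPKM in each library of the 9 members whose CKO (red) and WT (blue) libraries do not overlap; black marks give the mean and SD of each group (n = 3), and each axis starts at 0. The gap is wide for Usp47 and narrow for the other 8, whose groups nearly touch.

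The WDR48-dependent members need the beta-propeller protein Wdr48 for full activity. Usp46, which in worm and mouse neurons acts on glutamate receptors, was at 16.3, 16.2 and 18.7 FPKM in CKO and at 15.1, 15.4 and 15.8 FPKM in WT libraries. The groups did not overlap, and CKO 3 was the highest library (log2 fold change 0.13, limma adjusted p = 0.6981). Its close paralog Usp12 averaged 45.6 ± 2.43 FPKM in CKO and 46.999 ± 2.197 FPKM in WT (log2 fold change -0.04), and Usp1, which acts on the repair proteins Fancd2 and Pcna, 8.90 ± 0.207 FPKM in CKO and 9.59 ± 0.541 FPKM in WT (log2 fold change -0.10). The ratio of Usp46 to Usp12 overlapped between the genotypes, at 0.338 to 0.408 in CKO and 0.312 to 0.345 in WT libraries.

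The 7 members grouped under histones and transcription all had fold changes above 0, between 0.0093 and 0.09, and none was called. Over all tested genes 49.5% were above 0. Roles were chosen with earlier results known, and Usp48, an H2A protease grouped under DNA repair, was at -0.0010. The fold change of Usp3 was -0.0067 with quantile normalization and -0.0074 with sample weights. With a single library left out the lowest value was -0.068 for Usp3, -0.046 for Usp16, -0.0071 for Usp49 and -6.98e-06 for Usp27x, so that 3 of the 7, Usp21, Usp22 and Usp36, stayed above 0 in each such fit. Usp22, the ubiquitin protease of the SAGA co-activator complex that acts on histone H2B, was at 52.7, 55.0 and 54.2 FPKM in CKO and at 51.2, 49.7 and 50.7 FPKM in WT libraries. The groups did not overlap (log2 fold change 0.09, SE 0.04, limma adjusted p = 0.6579). Usp27x, an X-linked relative of Usp22, was the least abundant member, at 1.39, 1.44 and 1.54 FPKM in CKO and at 1.454, 1.454 and 1.15 FPKM in WT libraries, with overlap. The histone H2A protease genes Usp16 and Usp21 averaged 14.9 and 28.7 FPKM in CKO and 14.6 and 28.1 FPKM in WT. Usp36, a nucleolar protease, averaged 10.1 FPKM in CKO and 9.55 FPKM in WT, Usp49, an H2B protease, 8.73 FPKM in CKO and 8.39 FPKM in WT, and Usp3, an H2A protease, 5.89 FPKM in CKO and 5.85 FPKM in WT. Usp21 had the smallest residual spread of the family, 0.015 on the log2 scale.

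At the proteasome and on free ubiquitin chains, Usp5, which takes unanchored chains apart, was at 41.7, 46.1 and 42.6 FPKM in CKO and at 41.5, 41.2 and 41.5 FPKM in WT libraries. The groups were separated by less than the spread of the CKO libraries (log2 fold change 0.07, limma adjusted p = 0.7793). Its paralog Usp13 averaged 4.92 FPKM in CKO and 4.91 FPKM in WT. Usp14, which trims chains on the proteasome itself, averaged 19.8 ± 0.963 FPKM in CKO and 21.3 ± 0.632 FPKM in WT (log2 fold change -0.09, limma adjusted p = 0.7522), with overlap; its gene overlaps Thoc1 on the opposite strand.

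At mitochondria and the endoplasmic reticulum no member was called. Usp19, anchored in the endoplasmic reticulum, averaged 59.5 ± 2.87 FPKM in CKO and 57.5 ± 2.94 FPKM in WT. Usp30, which sits in the outer mitochondrial membrane and opposes Parkin-driven removal of mitochondria, averaged 17.6 ± 0.761 FPKM in CKO and 16.8 ± 1.33 FPKM in WT. Usp35 averaged 3.25 FPKM in CKO and 3.45 FPKM in WT, and its paralog Usp38 10.8 FPKM in CKO and 11.7 FPKM in WT. Usp25 averaged 9.78 ± 1.27 FPKM in CKO and 9.90 ± 0.814 FPKM in WT. Its paralog Usp28, a stabilizer of Myc, is counted with the DNA repair and p53 members. Usp28 averaged 8.44 ± 0.885 FPKM in CKO and 8.21 ± 0.439 FPKM in WT.

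Among the remaining members, Usp39, a splicing factor that has lost protease activity, averaged 12.2 ± 0.988 FPKM in CKO and 13.04 ± 1.601 FPKM in WT. Usp40, set beside Usp47 as a relative within the family, was at 6.82, 7.97 and 8.05 FPKM in CKO and at 7.33, 7.28 and 6.01 FPKM in WT libraries, with overlap (log2 fold change 0.13, 95% interval -0.10 to 0.36). The ratio of Usp47 to Usp40 was 8.62, 7.33 and 7.60 in CKO and 5.85, 5.72 and 7.17 in WT libraries; it was higher in every CKO library, though WT 3 came close to CKO 2. Usp34, a very large protease linked to Wnt signalling, averaged 31.4 FPKM in each genotype. Usp37, which acts in the cell cycle, averaged 7.25 ± 0.656 FPKM in CKO and 6.85 ± 0.809 FPKM in WT.

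**Figure D5:**
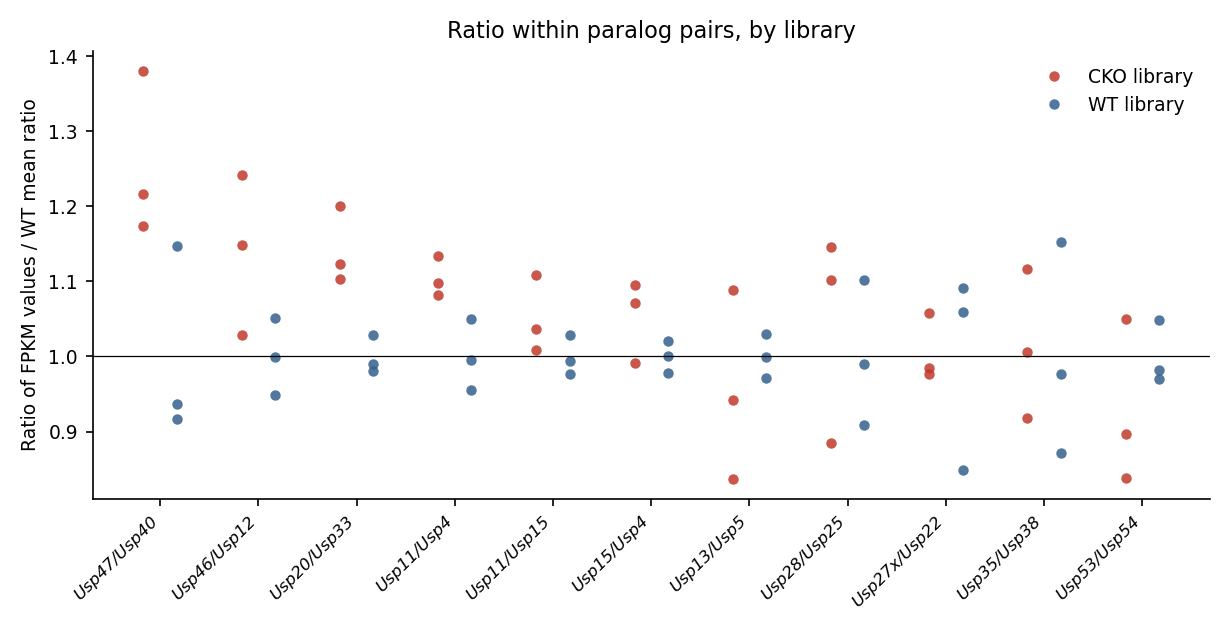
Ratio of the FPKM values within each of 11 paralog pairs in every library, divided by the mean ratio of the WT libraries (red points, CKO; blue points, WT). The ratios of Usp47 to Usp40, Usp20 to Usp33 and Usp11 to Usp4 lie higher in all CKO libraries than in any WT library, and those of the other 8 pairs overlap. Each of these separated pairs holds a member with a limma unadjusted p under 0.05 (Usp47, Usp33 or Usp11). Their ratios carry that difference and are not further support. The share of other gene pairs without overlap was not computed.

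Usp2 varied between libraries more than any other member. It encodes a protease whose transcript is under circadian control in several tissues. Its levels were 18.1, 34.1 and 30.2 FPKM in CKO and 22.9, 36.1 and 30.6 FPKM in WT libraries. The first library of each genotype was the low one and the groups overlapped widely. The residual spread was 0.40 on the log2 scale, larger than that of 98.05% of the genes tested, and the median over the family was 0.078. The log2 fold change was -0.14 with a 95% interval of -0.69 to 0.40, and it was 0.12 without CKO 1.

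The members just above and just below the level of 1 FPKM were Usp27x, with a mean of 1.40 FPKM, and Usp51, also an X-linked relative of Usp22, with a mean of 0.717 FPKM. Below it were also Usp18, Usp43, Usp50 and Usp44, with means of 0.248, 0.115, 0.0954 and 0.035 FPKM. Usp26 was listed at 0 in all libraries, as was Usp9y. In GENCODE, 11 of the 43 members (25.6%) overlap another gene of the table, each with at least 1 on the opposite strand, and no source used here gives how such reads were counted.

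Genes of the 5 other deubiquitinase families were described in the same way: of 38 tested genes, 19 lay above 0 and 19 below (median -0.0011), and none was called by limma. Of these, 4 had an unadjusted p under 0.05 (2 higher and 2 lower), where the share of all tested genes was 7.88%. Higher in CKO were Uchl1, the abundant neuronal ubiquitin hydrolase, and Otub1, an inhibitor of ubiquitin-conjugating enzymes. Uchl1 was at 244.4, 247.1 and 233.2 FPKM in CKO and at 218.8, 225.3 and 221.6 FPKM in WT libraries (log2 fold change 0.12, limma adjusted p = 0.5512). Otub1 averaged 56.3 ± 2.03 FPKM in CKO and 52.0 ± 0.328 FPKM in WT (log2 fold change 0.11, limma adjusted p = 0.6007). Lower in CKO were Brcc3, a protease for K63-linked chains, with 16.8 ± 0.681 FPKM in CKO and 18.9 ± 1.36 FPKM in WT, and Cops5, the deneddylase of the COP9 signalosome, with 37.4 ± 1.85 FPKM in CKO and 42.7 ± 4.42 FPKM in WT.

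By family, the median log2 fold change was 0.016 for 4 UCH, 0.013 for 14 OTU, 0.068 for 3 Josephin, -0.0086 for 12 JAMM/MPN and -0.031 for 5 MINDY and ZUFSP genes. The 2 genes of smallest p within each family are named, whatever the size of that p. Besides the genes above these were Uchl5 among the UCH genes (12.2 FPKM in CKO, 12.9 FPKM in WT, limma adjusted p = 0.853) and Zranb1 among the OTU genes (56.0 FPKM in CKO, 64.4 FPKM in WT, limma adjusted p = 0.775). In the Josephin family they were Josd1 (16.5 FPKM in CKO, 15.7 FPKM in WT, limma adjusted p = 0.858) and Josd2 (15.3 FPKM in CKO, 14.5 FPKM in WT, limma adjusted p = 0.867). Among the MINDY and ZUFSP genes they were Fam188b (4.50 FPKM in CKO, 5.12 FPKM in WT, limma adjusted p = 0.7199) and Fam63b (15.4 FPKM in CKO, 15.8 FPKM in WT, limma adjusted p = 0.93996). Among USP-fold genes with other symbols, 3 were tested; Uspl1, a SUMO protease, averaged 16.9 FPKM in CKO and 18.05 FPKM in WT, and Cyld, a suppressor of NF-kappaB signalling, 10.1 FPKM in CKO and 9.35 FPKM in WT.

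The substrates and partners of the family also held no called gene. Of 7 tested genes linked to Usp47, 3 had fold changes above 0 and 4 below (median -0.0051). Polb, the DNA polymerase beta gene, averaged 55.2 ± 2.55 FPKM in CKO and 51.7 ± 5.91 FPKM in WT, and Huwe1, a large ubiquitin ligase, 47.9 ± 0.828 FPKM in CKO and 45.9 ± 1.54 FPKM in WT. Of 18 tested partner proteins of USPs, 8 were above 0 and 10 below, with Otub1 and Atxn7l1, a paralog of the SAGA subunit gene Atxn7, (9.98 FPKM in CKO, 8.66 FPKM in WT) at the smallest p. Of 6 ubiquitin and E1 genes, 4 were above 0 and 2 below; the polyubiquitin gene Ubb averaged 869.8 ± 18.8 FPKM in CKO and 838.9 ± 40.6 FPKM in WT, and the E1 gene Uba6 5.51 ± 0.769 FPKM in CKO and 5.23 ± 0.653 FPKM in WT. Of 32 proteasome genes, 12 were above 0 and 20 below (median -0.016). Of the 32, 2 had an unadjusted p under 0.05, the core subunit genes Psma3 and Psmb4, where the share of all tested genes was 7.88%. Psma3 was at 57.6, 59.0 and 58.9 FPKM in CKO and at 63.9, 60.9 and 66.5 FPKM in WT libraries (log2 fold change -0.12, limma adjusted p = 0.5978). Psmb4 averaged 122.9 ± 6.78 FPKM in CKO and 134.4 ± 5.50 FPKM in WT (log2 fold change -0.13, limma adjusted p = 0.6248). Psmd7 went the other way without overlap, averaging 53.9 FPKM in CKO and 49.8 FPKM in WT (log2 fold change 0.11, limma unadjusted p = 0.0531, adjusted p = 0.6394).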

How the data were processed

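Retinal mRNA of 3 CKO and 3 WT samples was analysed. The labels' protocols give TRIzol for the extraction and an Illumina TruSeq kit that keeps strand for the libraries. TopHat2 2.0.13 and Bowtie2 2.3.5.1 are listed in the submitters' processing notes, as are Cufflinks 2.2.1, SAMtools 1.11 and mm10. The role of each, the annotation and the strand setting were not given. The authors deposited 1 FPKM value per symbol and library. This unit was read from the tool Cufflinks and from fractional values whose sums differ between libraries (402832 to 436299). WT 3 had the largest sum. Its top 10 genes made up 9.66% of that sum, against 5.65% to 6.27% in the other libraries. In WT 3, 27 symbols had become dates; they were put back from the matching rows of the other files. Absolute depth is unknown. Steps in low FPKM values put the other libraries at 1.05 to 1.30 times the depth of WT 1, and no counting interval was set.

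Genes averaging 1 FPKM or more (13215) were fitted with limma 3.58.1 (R 4.3.3) on log2(FPKM + 1), with eBayes and a variance trend, two-sided and without covariates; p-values were adjusted by Benjamini-Hochberg over all of them, at 0.05. This scale understates changes of low genes. The fit was tested on simulated data. Since 3 against 3 libraries cannot give a permutation p below 0.1, that test was not used. Alternatives were other pseudocounts, filters, scalings and eBayes settings, sample weights, a replicate block and each library left out.

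Named are Usp47, members with an unadjusted p under 0.05 or without overlap, the 5 highest and 3 lowest in level, paralog pairs, tested genes within 1 Mb of Usp47 and the 2 genes of smallest p in each list; other members are given by role, with values added after they were seen. Members, roles and lists were chosen with earlier results of these data known. Positions are from GENCODE M21 on GRCm38, the assembly that mm10 denotes, and promoter windows from RefSeq.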

Additional observations from a re-analysis of the deposited data

How the results depend on the processing

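In the 17 alternative fits Usp47 kept a log2 fold change of 0.45 to 0.49, but its call was lost with the replicate block (log2 fold change 0.47, adjusted p = 0.0987), without the variance trend (log2 fold change 0.47, adjusted p = 0.1511) and with any library left out (log2 fold change 0.45 to 0.49, adjusted p = 0.0579 to 0.1973). The count of members called was therefore 0 with the replicate block, 0 without the trend and 0 in each fit that left out a library. The fits without a library have fewer samples; for the other settings the cause was not tested. Members at an unadjusted p under 0.05 numbered 5 without the filter, 1 without the trend and 1 to 2 with a library left out (1 without CKO 2, WT 2 or WT 3). Over all tested genes 1 was called without the trend, and 1 to 4 with a library left out. The family median was 0.0047 without WT 3 and at most 0.041 with a library left out. The log2 fold change of Cyfip2 was -2.29 in 3 fits short of the threshold, where the adjusted p was 0.074 without the filter, 0.111 with robust eBayes and 0.102 without the trend, and -2.37 to -2.15 in those without CKO 1, CKO 2, CKO 3, WT 2 or WT 3; over all 6 it was -2.55 to -2.15.

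Same-numbered CKO and WT libraries had correlations of their deviations from the group means of 0.072, 0.0063 and 0.10. Those of differently numbered libraries ran from -0.12 to 0.036, below the values for CKO 1 with WT 1 and CKO 3 with WT 3. The same-numbered values were not all above 0.1, so the numbers were not taken as pairs. These values do not settle whether the libraries are pairs. With the replicate block, the limma adjusted p of Usp47 was 0.0987.

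Signs of members near 0 turned. With quantile normalization Usp3 was at -0.0067 and Usp48 at 0.011. With sample weights Usp3 was at -0.0074, Usp48 at 0.015 and Usp25 at 0.041. With a library left out the ranges that crossed 0 were -0.0071 to 0.098 for Usp49, -0.32 to 0.12 for Usp2, -0.14 to 0.0034 for Usp35, -6.98e-06 to 0.094 for Usp27x, -0.051 to 0.017 for Usp4, -0.10 to 0.051 for Usp7, -0.043 to 0.083 for Usp28, -0.046 to 0.061 for Usp16, -0.074 to 0.035 for Usp53, -0.079 to 0.071 for Usp8, -0.10 to 0.071 for Usp25, -0.066 to 0.096 for Usp42, -0.068 to 0.10 for Usp3, -0.072 to 0.039 for Usp13, -0.048 to 0.053 for Usp48, -0.024 to 0.029 for Usp34, -0.085 to 0.029 for Fam63b and -0.028 to 0.16 for Uba6. The other 1129 comparisons of single genes kept their direction and stayed on their side of the threshold. Depth is unknown, so differences of low genes carry an unknown counting error, and an interval that spans 0 does not show that a gene was unchanged.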

Other observations

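Usp18, which removes the interferon-induced modifier ISG15 and restrains interferon signalling, lay under the level of 1 FPKM and outside the members. It was at 0.0844, 0.0682 and 0.0746 FPKM in CKO and at 0.442, 0.484 and 0.333 FPKM in WT libraries, and the groups did not overlap. In the fit without a filter its log2 fold change was -0.40 (limma unadjusted p = 0.000357, adjusted p = 0.2651). At this level an FPKM value can rest on very few fragments, and the counting error is unknown. Usp18 was singled out after its values were seen.

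The scatter of Usp2 was set beside 14 circadian clock genes that were chosen after its values were seen. Ciart, a clock output gene, was at 7.01, 9.71 and 20.2 FPKM in CKO and at 10.2, 15.3 and 22.9 FPKM in WT libraries. Per1 was at 20.7, 26.0 and 26.3 FPKM in CKO and at 21.6, 29.4 and 26.4 FPKM in WT libraries. The first library of each genotype was the lowest for Usp2 and for 4 of the 14 clock genes, Arntl, Bhlhe41, Ciart and Per1. The other 10 did not share this order. Among them Dbp was at 51.6, 38.6 and 40.0 FPKM in CKO and 45.9, 45.8 and 44.5 FPKM in WT libraries, and Clock lay between 17.7 and 20.2 FPKM in all libraries. Outside the clock genes, Zranb1 also had its first library lowest in each genotype. It was at 45.2, 61.0 and 61.9 FPKM in CKO and at 54.1, 70.0 and 69.1 FPKM in WT libraries. The share of all tested genes with this order was not computed, so the order is not shown to be particular to clock genes. The labels give no time of day for the samples, and its part in these values was not tested.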
